A study of Mus musculus with 24 samples.

Results

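The mitochondrial carrier family Slc25 was followed in mouse liver across a sugar drink and a high-fat diet. Its members were taken as every array probe whose annotated symbol is Slc25a with a number, together with Ucp2 and Ucp3, the uncoupling proteins that belong to the same family. The rule used no measured value. It found 78 of the 45281 probes, and they stood for 47 genes. Of these, 51 probes of 34 genes lay above the noise limit on at least 6 of the 24 arrays, and the 34 genes were among 11115 genes tested. No probe of the annotation used carried the symbol Ucp2, which is not analysed here.

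Most mitochondrial carriers are small proteins of the inner mitochondrial membrane, made of repeated membrane-spanning segments around a central cavity that opens in turn to the cytosol and to the matrix. Most exchange one metabolite for another, and they connect cytosolic with mitochondrial metabolism: ADP and phosphate for ATP synthesis, citrate for fatty acid synthesis, acylcarnitines for fat oxidation, aspartate and malate for NADH shuttles and gluconeogenesis, ornithine for the urea cycle, and iron for heme. One member, Slc25a17, lies in the peroxisome instead, and several members still have no settled substrate.

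Total liver RNA of male C57BL/6J mice aged 16 weeks, fed for 10 weeks, was measured on Illumina bead arrays in 4 groups of 6 samples: high fat + high sugar (high-fat diet with a 23% w/v sugar drink), high-fat (the same diet with plain water), high-sugar (normal diet with the sugar drink) and control (normal diet with plain water). The study asks how high sugar consumption changes liver transcription in normal-fed and in fat-fed mice. The labels number samples 1 to 6 but do not say that each is a separate animal, so the p-values speak for the spread among these samples. Values are array intensities on a linear scale; differences are of log2(intensity + 32), with the standard error (SE, n = 6 a group) and a Benjamini-Hochberg adjusted p from limma over all 11115 genes; "rose", "fell" and "changed" mean an adjusted p under 0.05. Folds are of intensity plus 32, which shrinks those of dim genes, and levels are not compared between probes.

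Correlations between arrays were 0.987 to 0.996 within groups and 0.974 to 0.992 between groups. One high fat + high sugar sample, replicate 4, stood apart in carrying skeletal muscle transcripts: Acta1, skeletal actin, read 6157 there and at most 2.43 in 22 other samples, and Ckm, muscle creatine kinase, read 810 there and at most 5.49 in those samples. Of the other muscle markers, Tnnt3 read 605 in it, Mb 371 and 623 by its 2 probes, and Myh4 -0.62. High-fat replicate 4 read 56.3 for Acta1. Slc25a4, the adenine nucleotide translocase typical of muscle, was above noise on none of the 24 arrays. Results that change without these 2 samples are given both ways. Of the hepatocyte markers, 5 of 6 were tested. Apoa1 and Ttr were bright in all groups. Alb was dim by its probe (group means of 152 in high-sugar and 61.0 in control livers). The sixth, Tat, was not among the genes tested. In liver RNA, fewer cells of a type and less RNA per cell cannot be told apart.

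On the normal diet, the sugar drink changed 13 of 34 carriers (38.2%), where 28.9% of all genes did. Of these, 5 carriers rose, against 14.8% of all genes, and 8 fell, against 14% of all genes. The median carrier differed by -0.02 and the median gene by -0.01 on the log2 scale. On the high-fat diet the drink also changed 13 carriers (38.2%, where 30.6% of all genes changed): 6 rose and 7 fell, against 16.5% and 14% of all genes. The median was -0.06 for carriers and -0.01 for all genes. Carriers of phosphate, adenine nucleotides and coenzyme A were among those that rose, and carriers of ornithine, glutathione and ATP-Mg were among those that fell. A set of 7 carriers passed in the same direction on both diets, 4 upward (Slc25a3, Slc25a5, Slc25a16 and Slc25a17) and 3 downward (Slc25a15, Slc25a34 and Slc25a39), and none passed in opposite directions. The shares of all genes that did either are not given here, so these counts are not read as particular to the family.

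**Figure D1:**
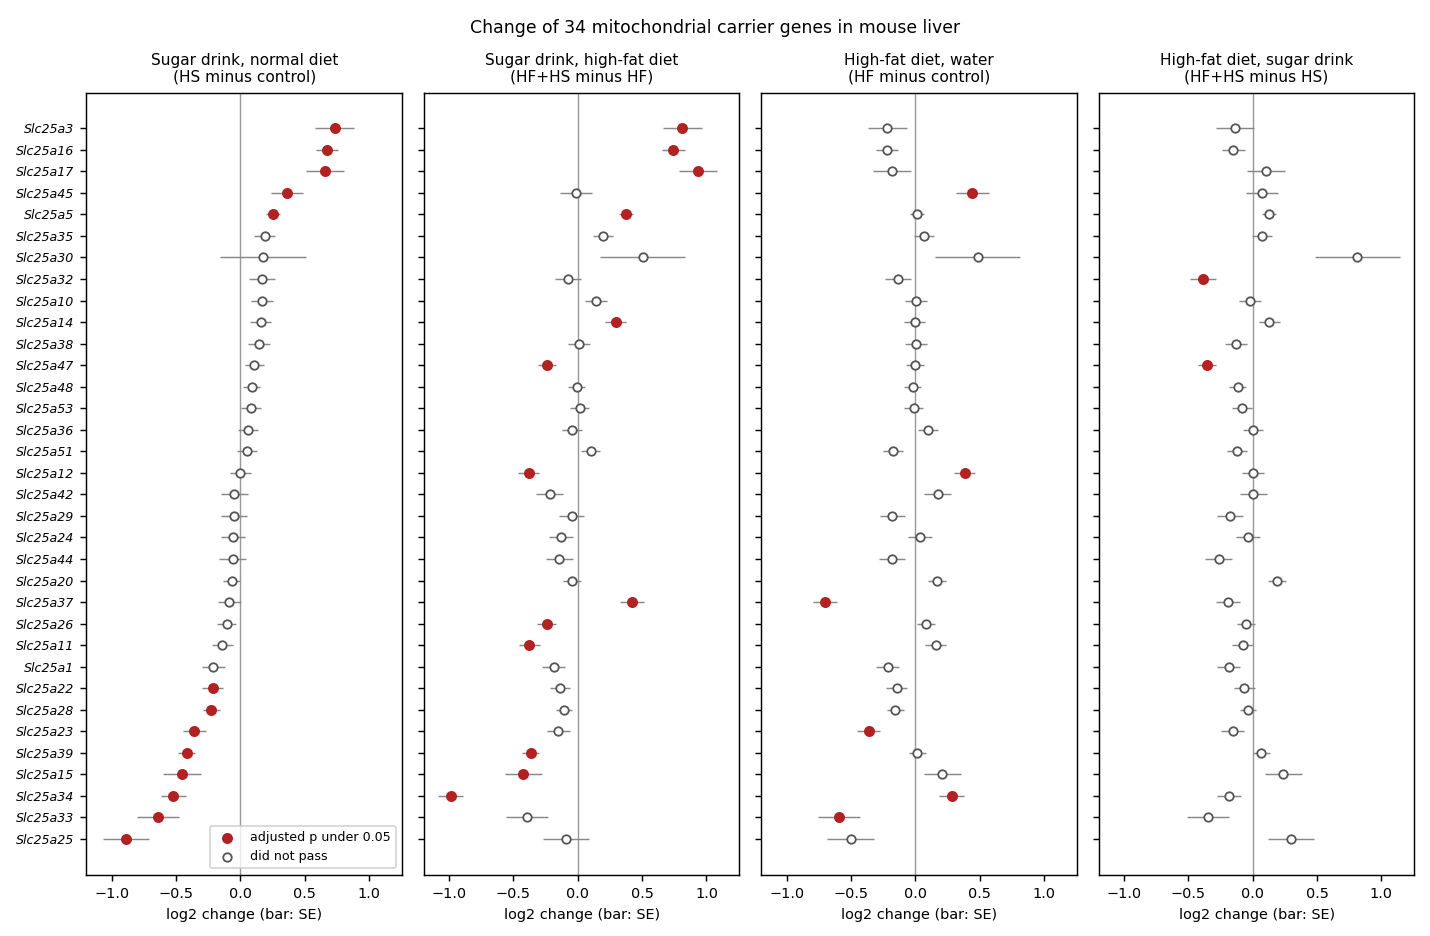
Log2 change (x axis, with SE bars) of the 34 carrier genes tested, 1 row a gene, in 4 comparisons: the sugar drink on the normal and on the high-fat diet, and the high-fat diet on plain water and on the drink. Filled points passed an adjusted p of 0.05; 13, 13, 6 and 2 carriers did so in the 4 panels.

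The upstream sequence of carriers that changed with the drink is shown first, as 250 bases before the RefSeq start (GRCm38.p6, minus strand in each case). Capitals mark letters searched on both strands: the cAMP response element TGACGTCA, the E-box CACGTG, the nuclear receptor half-site AGGTCA, the NRF1 site and the ETS site CCGGAAG. Windows were found for 28 of the 34 carriers. Slc25a3 and Slc25a17 are among the carriers that rose on both diets, and Slc25a34 is among those that fell on both. They do not stand for the others. Slc25a25 and Slc25a33 were the carriers with the largest falls on the normal diet.
Slc25a3, chr10:91123968-91124217: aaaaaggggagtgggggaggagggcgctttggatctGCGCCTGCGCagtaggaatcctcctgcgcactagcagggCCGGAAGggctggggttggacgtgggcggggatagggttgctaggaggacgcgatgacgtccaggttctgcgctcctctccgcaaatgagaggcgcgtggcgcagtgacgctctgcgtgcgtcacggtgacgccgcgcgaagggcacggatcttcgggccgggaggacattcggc
Slc25a17, chr15:81360766-81361015: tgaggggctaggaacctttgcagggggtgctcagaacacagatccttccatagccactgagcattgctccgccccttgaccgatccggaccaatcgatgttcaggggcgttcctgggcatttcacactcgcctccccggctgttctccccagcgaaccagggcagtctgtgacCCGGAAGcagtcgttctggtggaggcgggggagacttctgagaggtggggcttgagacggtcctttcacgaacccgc
Slc25a34, chr4:141623835-141624084: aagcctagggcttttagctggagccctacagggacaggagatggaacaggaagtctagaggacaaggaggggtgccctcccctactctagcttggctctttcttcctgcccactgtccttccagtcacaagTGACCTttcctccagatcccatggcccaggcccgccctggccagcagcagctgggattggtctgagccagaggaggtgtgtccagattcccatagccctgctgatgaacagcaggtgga
Slc25a25, chr2:32424067-32424316: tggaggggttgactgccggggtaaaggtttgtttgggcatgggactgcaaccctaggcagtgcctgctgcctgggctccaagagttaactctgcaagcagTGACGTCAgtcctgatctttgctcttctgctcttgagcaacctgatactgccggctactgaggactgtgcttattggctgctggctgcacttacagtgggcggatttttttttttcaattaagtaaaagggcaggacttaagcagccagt
Slc25a33, chr4:149774268-149774517: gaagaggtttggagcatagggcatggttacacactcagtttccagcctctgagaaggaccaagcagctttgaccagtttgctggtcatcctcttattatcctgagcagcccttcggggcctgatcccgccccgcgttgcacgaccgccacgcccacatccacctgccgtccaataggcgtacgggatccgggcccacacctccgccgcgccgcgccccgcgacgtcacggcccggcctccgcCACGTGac
The Slc25a3 window holds an NRF1 match beginning at -214 and an ETS match at -175 from the start, and the Slc25a17 window an ETS match at -77. The Slc25a34 window holds the half-site on its other strand at -119. Slc25a25 has 3 listed starts, and the window shown is the one with a cAMP response element, at -150; the windows of the other starts hold none of these letters. The Slc25a33 window holds an E-box at -8. Among 37 carrier windows and 32851 windows in all, the cAMP response element was in 2 (1.55% of all windows), the E-box in 6 (6.02%), the half-site in 4 (14%), the NRF1 site in 1 (3.74%) and the ETS site in 4 (6.91%). Slc25a5 and Slc25a16, which also rose on both diets, had no match found, and windows were not found for every carrier. Of the others that fell on both diets, Slc25a39 had the half-site and Slc25a15 had an E-box and no half-site. Matches of letters are descriptions and show no binding.

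Slc25a3, the phosphate carrier that brings in phosphate for ATP synthesis, read 189 at lowest, 250 at the median and 284 at highest in high-sugar livers, against 110, 126 and 158 in control livers. It rose 1.66-fold (log2 0.73 ± 0.15, adjusted p = 0.000557), and all 6 high-sugar samples lay above every control sample. On the high-fat diet it read 153, 205 and 402 in high fat + high sugar livers, against 86.2, 104 and 157 in high-fat livers, and rose 1.76-fold (0.81 ± 0.15, adjusted p = 0.000157); here 4 of 6 samples lay above the highest high-fat sample. A second, dimmer probe of the gene rose as well, by 0.70 (adjusted p = 7.5e-05) and 0.40 (adjusted p = 0.0128).

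Slc25a5, the adenine nucleotide translocase 2 that exchanges ADP for ATP, read 7271, 7467 and 8152 (lowest, median and highest) in high-sugar livers, against 5897, 6332 and 6698 in control livers. Its rise was small, 1.19-fold (0.26 ± 0.05, adjusted p = 0.00076). In high fat + high sugar livers it read 7679, 8235 and 8934, against 5959, 6397 and 6925 in high-fat livers, a 1.29-fold rise (0.37 ± 0.05, adjusted p = 8.63e-06). The groups did not overlap on either diet, as for 12% of all genes on the normal and 13.5% on the high-fat diet; of the carriers, 8 did not overlap on each diet.

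Slc25a16, a carrier related to the yeast coenzyme A transporter Leu5, read 349, 362 and 401 in high-sugar livers, against 185, 224 and 246 in control livers. It rose 1.59-fold on the normal diet (0.67 ± 0.09, adjusted p = 2.84e-06) and 1.67-fold on the high-fat diet (0.74 ± 0.09, adjusted p = 4.68e-07), where it read 284, 305 and 443 in high fat + high sugar livers, against 164, 181 and 218 in high-fat livers. Every sample with the drink lay above every sample without it on the same diet. Slc25a17, the peroxisomal carrier of coenzyme A, FAD and NAD, read 59.4, 75.6 and 90.8 in high-sugar livers, against 21.5, 36.2 and 47.7 in control livers, and rose 1.58-fold (0.66 ± 0.15, adjusted p = 0.00133). In high fat + high sugar livers it read 63.7, 71.3 and 152, against 7.79, 28.2 and 43.4 in high-fat livers, and rose 1.92-fold (0.94 ± 0.15, adjusted p = 2.24e-05); again the groups did not overlap. With no offset but a floor of 16 its changes were 1.08 and 1.49. Slc25a42, the third carrier of coenzyme A, which works in mitochondria, did not pass on either diet (-0.05, adjusted p = 0.776, and -0.22, adjusted p = 0.113). Another, dim probe of it averaged 2.49 in high fat + high sugar livers, under the noise limit, and 8.18 in high-fat livers, and fell (-0.22, adjusted p = 0.0134).

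Among the carriers that fell on both diets, Slc25a34, for which no substrate is settled, had the largest change with the drink on the high-fat diet. It read 45.0, 56.5 and 68.6 in high fat + high sugar livers, against 109, 142 and 179 in high-fat livers, a 1.98-fold fall (-0.99 ± 0.10, adjusted p = 2.42e-08). On the normal diet it read 53.6, 71.8 and 79.2 in high-sugar livers, against 92.6, 114 and 129 in control livers, a 1.43-fold fall (-0.52 ± 0.10, adjusted p = 0.000194). All samples with the drink lay below all samples without it on each diet. A mean over its 3 probes, of which the other 2 are close to the noise limit, gave -0.46 and -0.19, both still past the threshold.

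Slc25a39, the carrier that imports glutathione into mitochondria, fell 1.33-fold on the normal diet (-0.42 ± 0.07, adjusted p = 3.64e-05) and 1.29-fold on the high-fat diet (-0.37 ± 0.07, adjusted p = 0.000128). It read 1638, 1794 and 1883 in high-sugar livers, against 2123, 2314 and 2828 in control livers, and 1673, 1869 and 1987 in high fat + high sugar livers, against 2289, 2401 and 2597 in high-fat livers. Neither pair of groups overlapped. Slc25a15, the ornithine carrier of the urea cycle, read 1393, 1573 and 1842 in high-sugar livers, against 1355, 2242 and 3134 in control livers, and fell 1.37-fold (-0.45 ± 0.14, adjusted p = 0.0191). In high fat + high sugar livers it read 1619, 1865 and 2270, against 1723, 2555 and 3286 in high-fat livers, and fell 1.34-fold (-0.42 ± 0.14, adjusted p = 0.0264). Both pairs overlapped, since the controls and the high-fat samples were widely spread. The fall on the normal diet missed the threshold without control replicate 6 (-0.35, adjusted p = 0.0617). That on the high-fat diet missed it without the 2 samples with muscle transcripts (-0.37, adjusted p = 0.0904), without high fat + high sugar replicate 4 alone (-0.38, adjusted p = 0.0605) or replicate 6 (-0.40, adjusted p = 0.0524), and without high-fat replicate 3 (-0.38, adjusted p = 0.0598) or replicate 5 (-0.35, adjusted p = 0.0767).

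**Figure D2:**
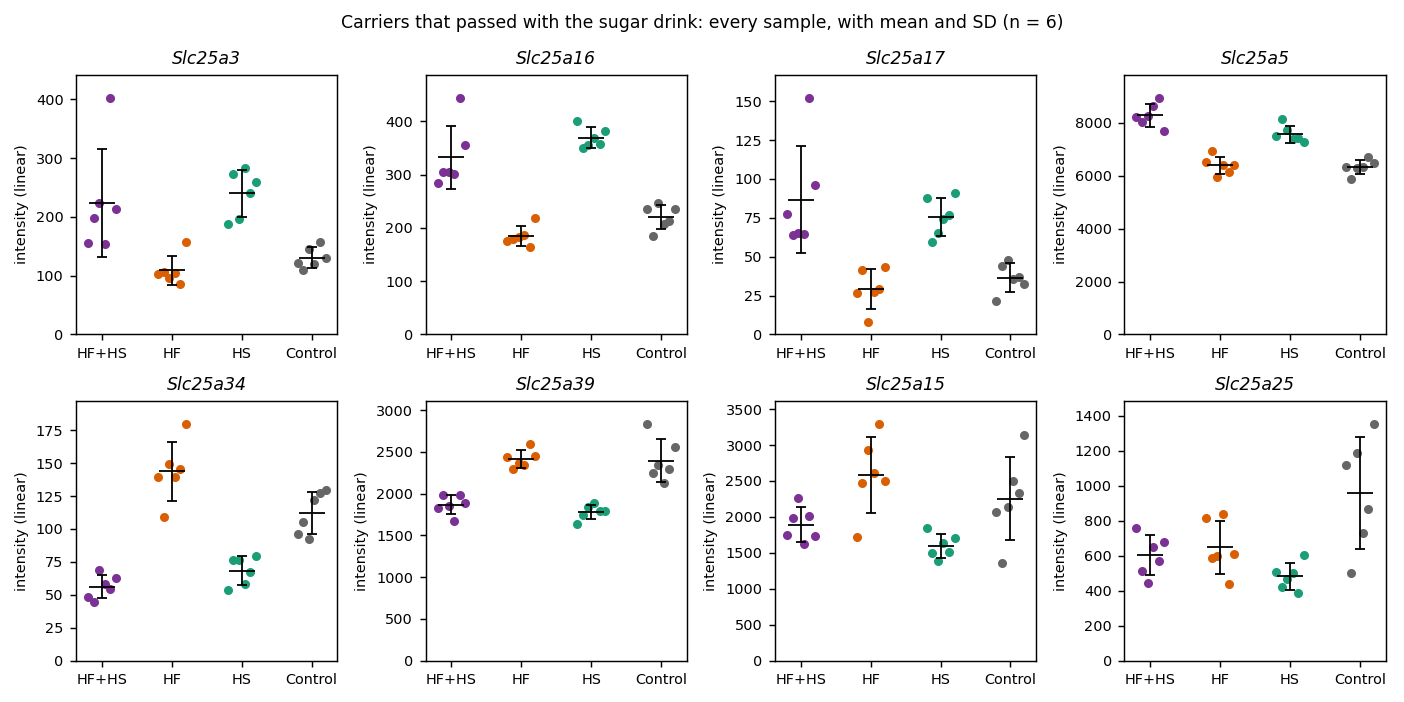
Intensity (linear, y axis from 0) of 8 carriers in each of the 24 samples, by group, with the mean and SD (n = 6). Slc25a3, Slc25a16, Slc25a17 and Slc25a5 are higher in both groups with the sugar drink, Slc25a34 and Slc25a39 are lower in both, Slc25a15 overlaps between groups, and Slc25a25 is spread from 500 to 1350 in control livers.

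A further 6 carriers passed with the drink on the normal diet and not on the high-fat diet; in none of them did the difference between the 2 diets itself pass in the fit reported here. Slc25a25, the calcium-regulated ATP-Mg and phosphate carrier SCaMC-2, had the largest fall on the normal diet, 1.85-fold (-0.89 ± 0.18, adjusted p = 0.000481). It read 389, 483 and 604 in high-sugar livers, against 500, 992 and 1350 in control livers, and 3 of 6 high-sugar samples lay below every control. On the high-fat diet its change was -0.09 ± 0.18 (adjusted p = 0.746), with 445, 610 and 758 in high fat + high sugar livers, against 440, 603 and 837 in high-fat livers. The difference between diets was 0.80 ± 0.25 (adjusted p = 0.0862); it passed with array weights, with the replicate block and without control replicate 2. Slc25a23, the related SCaMC-3, fell 1.28-fold on the normal diet (-0.36 ± 0.09, adjusted p = 0.00403), and read 158, 164 and 182 in high-sugar livers, against 169, 228 and 271 in control livers. Slc25a24, the third carrier of that kind, was dim and did not pass.

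Slc25a33, which carries pyrimidine nucleotides for mitochondrial DNA and RNA synthesis, read 617, 1131 and 1394 in high-sugar livers, against 1475, 1664 and 2020 in control livers. It fell 1.56-fold (-0.64 ± 0.16, adjusted p = 0.00412), and all 6 high-sugar samples lay below all controls. Slc25a36, the other pyrimidine nucleotide carrier, was near the noise limit and did not pass in any comparison. Slc25a45 read 856, 912 and 1161 in high-sugar livers, against 523, 780 and 891 in control livers, and rose 1.29-fold (0.36 ± 0.13, adjusted p = 0.0307). That call was lost without control replicate 1 (0.27, adjusted p = 0.0988) or 2 (0.32, adjusted p = 0.0721) and without high-sugar replicate 2 (0.34, adjusted p = 0.0633) or 6 (0.31, adjusted p = 0.0808). Slc25a28, mitoferrin 2, an iron importer, fell 1.17-fold (-0.22 ± 0.06, adjusted p = 0.0105), with 1177, 1240 and 1379 in high-sugar livers, against 1451, 1467 and 1497 in control livers. Slc25a22, a glutamate carrier, averaged 6.46 in high-sugar livers, under the noise limit, and 12.9 in control livers. Its fall (adjusted p = 0.0432) was lost under 5 of the alternative settings and without any 1 of 7 samples, control replicates 1, 2 and 3 and high-sugar replicates 3, 4, 5 and 6 (adjusted p of 0.0543 to 0.122).

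With the drink on the high-fat diet, 6 other carriers passed that did not on the normal diet; of these, the difference between diets passed for Slc25a37 in the fit reported here, and for Slc25a47 and Slc25a12 under some alternatives. Slc25a37, mitoferrin 1, is described with the high-fat diet below. Slc25a12, the aspartate-glutamate carrier aralar of the malate-aspartate shuttle, read 60.5, 79.7 and 92.6 in high fat + high sugar livers, against 104, 107 and 139 in high-fat livers. It fell 1.30-fold (-0.38 ± 0.08, adjusted p = 0.00088) with no overlap, where on the normal diet its change was 0.00 ± 0.08. A mean over its probes gave a smaller fall on the high-fat diet (-0.18, adjusted p = 0.0224). Its other, dimmer probe did not pass there (0.02, adjusted p = 0.836). That probe rose with both treatments (0.20, adjusted p = 0.035), where the bright probe did not pass (0.00, adjusted p = 0.984). Slc25a11, the oxoglutarate-malate carrier of the same shuttle, read 850, 914 and 1114 in high fat + high sugar livers, against 1041, 1240 and 1363 in high-fat livers, and fell 1.30-fold (-0.38 ± 0.08, adjusted p = 0.000704). A mean over its 3 probes gave -0.12 (adjusted p = 0.217), since 1 of them moved the other way, as described below.

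Slc25a26, which brings S-adenosylmethionine into mitochondria, read 172, 187 and 199 in high fat + high sugar livers, against 208, 227 and 240 in high-fat livers, and fell 1.18-fold with no overlap (-0.24 ± 0.07, adjusted p = 0.0122). Slc25a47, a carrier found almost wholly in liver, fell 1.18-fold as well (-0.24 ± 0.07, adjusted p = 0.0108). Slc25a14, a relative of the uncoupling proteins known from brain, averaged 6.99 in high fat + high sugar livers, above the noise limit on 3 of 6 arrays, and was not above it on any high-fat array. Its adjusted p was 0.00715, for a level at least 1.01-fold higher, and with a floor of 16 the 2 groups were equal. It met the noise filter with 6 arrays above the limit, the least allowed. Without the 3 high fat + high sugar arrays it would not have been tested.

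The high-fat diet with plain water changed 6 of 34 carriers (17.6%), where 17.9% of all genes changed. Of these, 3 rose and 3 fell, against 9.06% and 8.8% of all genes, and the median was 0.00 for carriers and for all genes alike. The shares are close to the background, so the count says nothing particular to the family. The members that changed were an iron carrier, an aspartate-glutamate carrier, a pyrimidine nucleotide carrier, an ATP-Mg carrier and a pair with no settled substrate.

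Slc25a37, mitoferrin 1, the importer that supplies iron for heme and iron-sulfur clusters, had the largest change with the diet. It read 117, 149 and 177 in high-fat livers, against 234, 253 and 292 in control livers, and fell 1.63-fold (-0.70 ± 0.09, adjusted p = 7.03e-06); all 6 samples lay below every control. In high fat + high sugar livers it read 190, 206 and 225, against 117, 149 and 177 in high-fat livers, a 1.34-fold rise with the drink (0.42 ± 0.09, adjusted p = 0.000852), again with no overlap. In high-sugar livers it read 181, 251 and 295, against 234, 253 and 292 in control livers (-0.09 ± 0.09, adjusted p = 0.53). High-fat livers were thus the low group among the 4.

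The difference between the drink's effect on the high-fat and on the normal diet was 0.51 ± 0.13 for Slc25a37 (adjusted p = 0.0358), the 1 carrier of 34 (2.94%) that passed this test, where 2.43% of all genes did, 1.14% with a positive difference. The call was lost without the 2 samples with muscle transcripts (0.52, adjusted p = 0.0675). It was also lost without any 1 of 11 samples, with an adjusted p of 0.0512 to 0.0627: control replicates 1, 3 and 5, high-sugar replicates 2, 4 and 6, high-fat replicates 2 and 6, and high fat + high sugar replicates 2, 4 and 5. Over all fits that left out 1 sample the difference stayed between 0.43 and 0.56.

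Because mitoferrin 1 is known for its part in red cell precursors, erythroid genes were set beside it; this list was added after its values were seen. Alas2, the erythroid form of the first enzyme of heme synthesis, read 463, 520 and 655 in high-fat livers, against 687, 878 and 1194 in control livers, and fell (-0.69 ± 0.11, adjusted p = 0.000126). It read 652, 803 and 923 in high fat + high sugar livers, against 463, 520 and 655 in high-fat livers, a rise of 0.54 ± 0.11 (adjusted p = 0.000703). Its difference between diets was 0.63 ± 0.16 (adjusted p = 0.0355). Slc4a1, the red cell anion exchanger, moved the other way: it rose by 0.51 with the high-fat diet (adjusted p = 0.0178), and fell by 0.76 with the drink on that diet (adjusted p = 0.000329). The haemoglobin genes Hba-a1, Hbb-bs and Hbb-bt did not pass in any of these comparisons. Of 9 erythroid genes listed, 4, Ahsp among them, were not among the genes tested, and 5 were. Their summed intensity ran from 63297 to 78800 in high fat + high sugar, 53974 to 85947 in high-fat, 55121 to 74142 in high-sugar and 52175 to 83201 in control livers. Their part in the Slc25a37 result was not tested.

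Slc25a12 rose 1.31-fold with the high-fat diet (0.38 ± 0.08, adjusted p = 0.00186): it read 104, 107 and 139 in high-fat livers, against 70.2, 78.4 and 86.7 in control livers, with no overlap. Slc25a13, citrin, the main aspartate-glutamate carrier of liver, did not pass the noise filter by either of its 2 probes, which lay above the limit on at most 1 array. Slc25a33 read 947, 1007 and 1428 in high-fat livers, against 1475, 1664 and 2020 in control livers, and fell 1.51-fold with no overlap (-0.59 ± 0.16, adjusted p = 0.0122). Slc25a23 read 132, 170 and 200 in high-fat livers, against 169, 228 and 271 in control livers, and fell 1.28-fold (-0.36 ± 0.09, adjusted p = 0.00621). The groups did not overlap for 4 carriers, where this held for 6.05% of all genes; the fourth, Slc25a28, did not pass (-0.16, adjusted p = 0.0977).

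Slc25a45 read 801, 1032 and 1325 in high-fat livers, against 523, 780 and 891 in control livers, and rose 1.36-fold (0.44 ± 0.13, adjusted p = 0.014). Slc25a34 read 109, 142 and 179 in high-fat livers, against 92.6, 114 and 129 in control livers, and rose 1.22-fold (0.28 ± 0.10, adjusted p = 0.0385). The call was lost without the 2 samples with muscle transcripts (0.29, adjusted p = 0.0578) and without any 1 of 8 samples (adjusted p of 0.0501 to 0.105): control replicates 1, 2 and 3, and high-fat replicates 1, 3, 4, 5 and 6. Without the 2 samples with muscle transcripts, 7 carriers passed with the diet, 2 upward and 5 downward. The share of all genes in that fit is not given here.

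**Figure D3:**
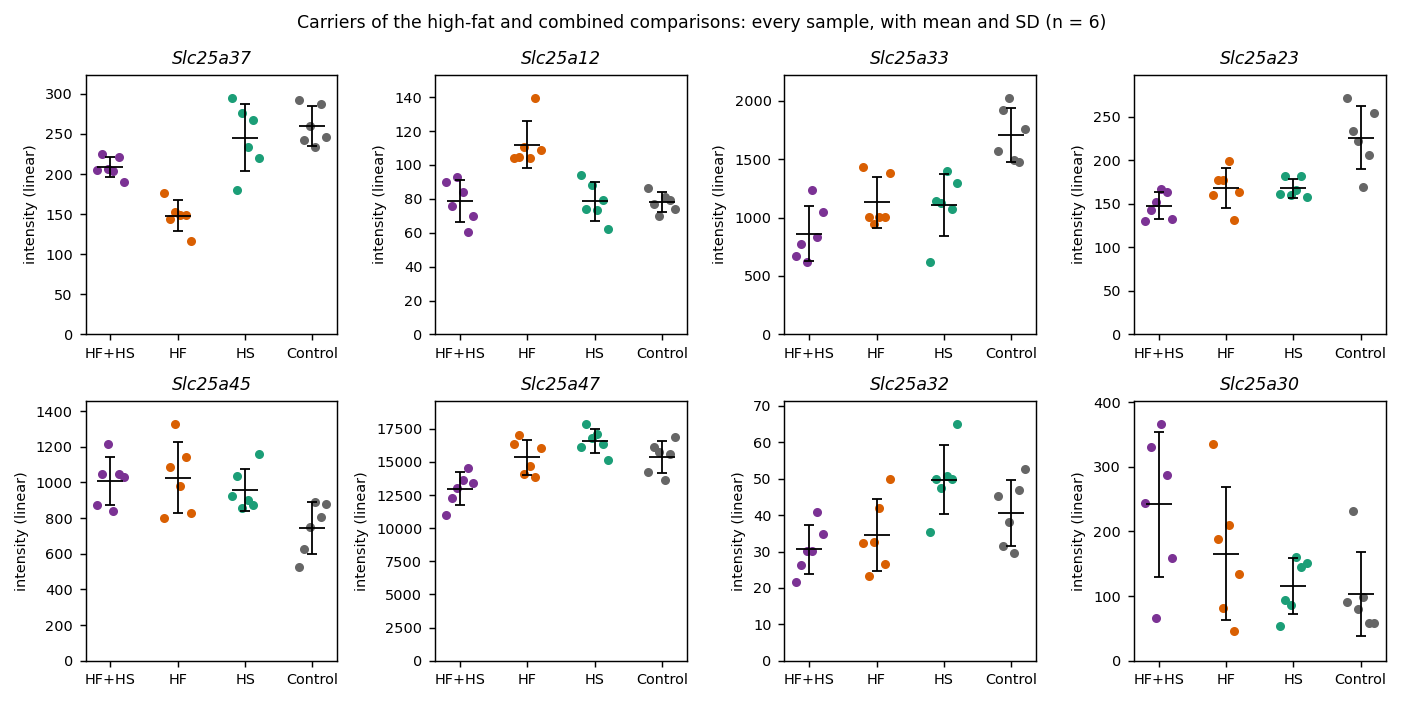
Intensity (linear, y axis from 0) of 8 carriers in each of the 24 samples, by group, with the mean and SD (n = 6). Slc25a37 is lowest and Slc25a12 highest in high-fat livers, Slc25a33 and Slc25a23 are highest in control livers, Slc25a47 is lowest in high fat + high sugar livers, and Slc25a30 is widely spread within groups.

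With the sugar drink in both groups, the high-fat diet changed 2 of 34 carriers (5.88%), where 7.85% of all genes changed, and both fell, where 4.34% of all genes rose and 3.52% fell. The median was -0.06 for carriers and 0.01 for all genes. Slc25a47 read 10992, 13255 and 14524 in high fat + high sugar livers, against 15149, 16593 and 17830 in high-sugar livers, and fell 1.28-fold (-0.35 ± 0.07, adjusted p = 0.00224). It was the 1 carrier without overlap, as 3.9% of all genes were. Its level in high-fat livers was 13884, 15365 and 17002, against 13607, 15672 and 16908 in control livers, a change of 0.00 ± 0.07. Slc25a32, a carrier of folates and FAD, read 21.7, 30.1 and 40.9 in high fat + high sugar livers, against 35.3, 49.98 and 64.9 in high-sugar livers, and fell 1.30-fold (-0.38 ± 0.10, adjusted p = 0.0169). Of its 6 high fat + high sugar samples, 5 lay below every high-sugar sample. The call was lost without high-sugar replicate 6 (-0.33, adjusted p = 0.0503), without high fat + high sugar replicate 1 (-0.34, adjusted p = 0.0575) and with the mean over its probes (-0.20, adjusted p = 0.123); with a floor of 16 in place of the offset the fall was -0.71. No carrier passed with the diet on both drinks. The share of all genes that did so is not given here.

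Both treatments together, high fat + high sugar against control, changed 20 of 34 carriers (58.8%), where 35.5% of all genes changed. This comparison shares its samples with those above. Of the 20, 8 rose and 12 fell, against 19% and 16.5% of all genes; the median was -0.08 for carriers and 0.00 for all genes. The groups did not overlap for 10 carriers, as for 14.2% of all genes. Without the 2 samples with muscle transcripts 18 carriers passed, 7 upward and 11 downward. The share of all genes in that fit is not given here.

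The largest fall was that of Slc25a33, which read 616, 803 and 1233 in high fat + high sugar livers, against 1475, 1664 and 2020 in control livers (1.98-fold, -0.99 ± 0.16, adjusted p = 3.84e-05). Slc25a34 fell 1.63-fold (-0.71 ± 0.10, adjusted p = 3.08e-06), Slc25a25 1.51-fold (-0.59 ± 0.18, adjusted p = 0.0111) and Slc25a23 1.43-fold (-0.51 ± 0.09, adjusted p = 8.35e-05). Of those that rose on both diets with the drink, Slc25a17 was 1.69-fold higher (0.76 ± 0.15, adjusted p = 0.000232), Slc25a3 1.51-fold (0.60 ± 0.15, adjusted p = 0.00282) and Slc25a16 1.44-fold (0.52 ± 0.09, adjusted p = 4.32e-05). Slc25a23 read 130, 148 and 167 in high fat + high sugar livers, below all 6 controls at 169, 228 and 271; the levels of the others in these groups are given above.

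Slc25a30, a relative of the uncoupling proteins known from kidney, rose 1.98-fold (0.99 ± 0.33, adjusted p = 0.0213), and passed in none of the other comparisons. It read 65.8, 266 and 366 in high fat + high sugar livers, 46.7, 161 and 335 in high-fat livers, 53.8, 120 and 161 in high-sugar livers, and 58.4, 85.5 and 232 in control livers. The spread was wide in every group, and 4 of 6 high fat + high sugar samples lay above the highest control. The call was lost without the 2 samples with muscle transcripts (0.85, adjusted p = 0.0575), and without any 1 of high fat + high sugar replicates 2 and 4 or control replicates 5 and 6 (0.85 to 0.90, adjusted p of 0.0501 to 0.0555).

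Slc25a1, the citrate carrier that exports citrate for fatty acid synthesis, read 991, 1037 and 1133 in high fat + high sugar livers, against 1163, 1346 and 1728 in control livers, and fell 1.32-fold with no overlap (-0.40 ± 0.09, adjusted p = 0.000957). By this probe neither treatment alone passed (-0.21, adjusted p = 0.0991 for the diet with water, and -0.21, adjusted p = 0.0779 for the drink on the normal diet). A second probe of Slc25a1 did fall with the drink on the normal diet (-0.37, adjusted p = 0.00456), as described below. Slc25a44, a carrier of branched-chain amino acids studied in brown fat, read 273, 316 and 342 in high fat + high sugar livers, against 330, 392 and 550 in control livers, and fell 1.25-fold (-0.32 ± 0.10, adjusted p = 0.0159); this call was lost without control replicate 6 (-0.24, adjusted p = 0.0557). A further 9 calls were those of Slc25a5, Slc25a45, Slc25a14 and Slc25a35 upward and Slc25a39, Slc25a22, Slc25a37, Slc25a28 and Slc25a47 downward, with log2 changes between -0.35 and 0.43, and the last was that of Slc25a11 (-0.22, adjusted p = 0.0344). The Slc25a11 call was lost without the 2 samples with muscle transcripts (-0.19, adjusted p = 0.0907) and without any 1 of high fat + high sugar replicates 1, 2, 4 and 6 or control replicates 4 and 5 (-0.22 to -0.16, adjusted p of 0.0545 to 0.103), and its sign turned with the mean over its probes (0.01, adjusted p = 0.926). Slc25a14, Slc25a22 and Slc25a35 had a group mean under the noise limit, and none of these 3 calls held with a floor of 16. Slc25a14 met the noise filter with 6 arrays above the limit, the least allowed, and Slc25a35 with 7. For each of these 2 genes, 3 of those arrays were high fat + high sugar samples. Without them neither gene would have been tested, so their place among the carriers that rose depended on the group compared.

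For 11 carriers more than 1 probe passed the noise filter, which gave 17 other probes, tested in a fit of all 20216 probes. In that fit 28% of probes changed with the drink on the normal diet, 29.6% on the high-fat diet, 15.6% with the high-fat diet and water, 7.05% with the diet and the drink, 33.4% with both treatments, and 2.52% in the interaction. Of the 17, 10 probes of 9 carriers passed in at least 1 comparison. The share of all probes that did so is not given here. Slc25a20, the carnitine-acylcarnitine carrier of fat oxidation, gave different pictures by its 2 probes. Its bright probe read 6311, 6806 and 7940 in high fat + high sugar livers, against 6269, 7085 and 7840 in high-fat livers, and passed in no comparison. Its other probe read 893, 1035 and 1324 in high fat + high sugar livers, against 1347, 1692 and 1877 in high-fat livers, and fell with no overlap (-0.66 ± 0.14, adjusted p = 0.00051). The same probe rose with the high-fat diet and water, at 1347, 1692 and 1877 in high-fat livers, against 776, 1138 and 1544 in control livers (0.52 ± 0.14, adjusted p = 0.00893).

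The second probe of Slc25a15 fell further than its first with the drink on the high-fat diet: it read 304, 379 and 573 in high fat + high sugar livers, against 483, 727 and 941 in high-fat livers (-0.80 ± 0.19, adjusted p = 0.00225). With the drink on the normal diet it did not pass (-0.42, adjusted p = 0.103), where the first probe fell. It rose with the high-fat diet and water (0.56, adjusted p = 0.049), where the first probe did not pass (0.21, adjusted p = 0.348). A second probe of Slc25a1 fell with the drink on the normal diet (-0.37, adjusted p = 0.00456), on the high-fat diet (-0.30, adjusted p = 0.0172) and with both treatments (-0.51, adjusted p = 0.00015). For Slc25a11, 1 probe read 141, 158 and 213 in high fat + high sugar livers, against 110, 125 and 175 in high-fat livers. It rose (0.30 ± 0.10, adjusted p = 0.0228), opposite to the bright probe, and the remaining probe fell with the bright one (-0.29, adjusted p = 0.0106). The rising probe also rose with the drink on the normal diet (0.40, adjusted p = 0.00389) and with both treatments (0.39, adjusted p = 0.00344). On the normal diet the bright probe (-0.14, adjusted p = 0.206) and the remaining probe (-0.12, adjusted p = 0.324) did not pass. Another probe of Slc25a38, a glycine carrier needed for heme synthesis, fell with the diet on water (-0.24, adjusted p = 0.0335) and on the drink (-0.26, adjusted p = 0.0387), where its bright probe did not pass. Which transcripts each probe reads is not given in the sources used here.

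**Figure D4:**
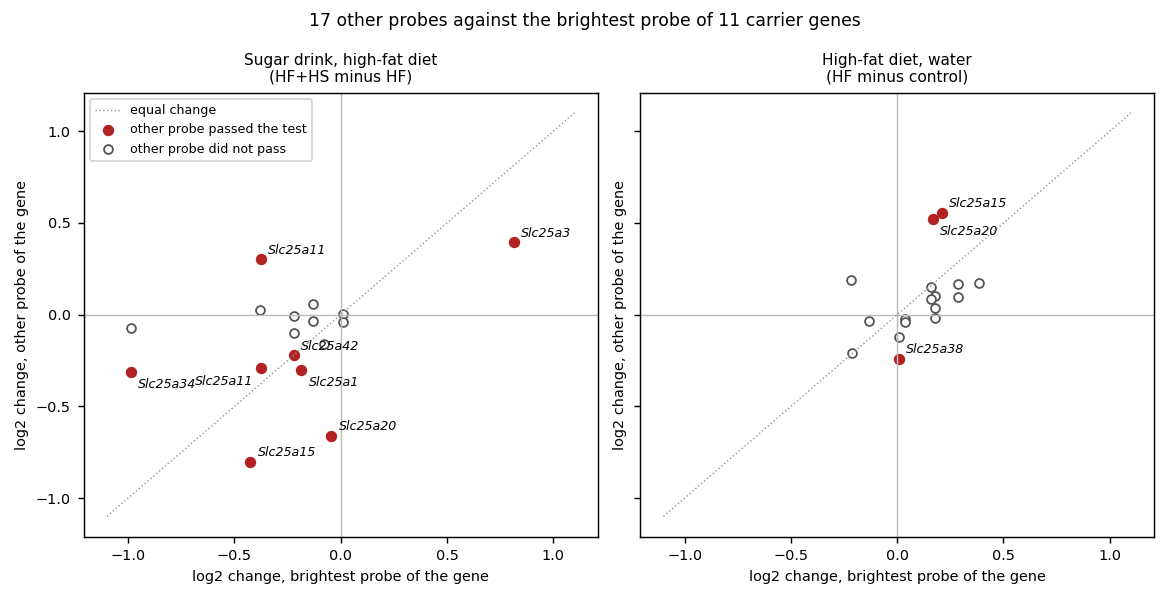
Log2 change of each of the 17 other probes (y axis) against that of the brightest probe of the same gene (x axis), for the sugar drink on the high-fat diet and for the high-fat diet with water; filled, named points passed an adjusted p of 0.05. Slc25a11 has a probe on each side of 0 in the first panel, and Slc25a20 lies near 0 by its brightest probe and at -0.66 and 0.52 by the other.

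Of the 34 carriers tested, 24 passed in at least 1 comparison and 10 in none: Slc25a10, the dicarboxylate carrier, Slc25a20, Slc25a24, Slc25a29, Slc25a36, Slc25a38, Slc25a42, Slc25a48, Slc25a51, the NAD carrier, and Slc25a53. Their log2 changes lay between -0.22 and 0.19. The share of all genes that passed in at least 1 comparison is not given here, so the 24 are not read as particular to the family. Slc25a10 read 2245, 2598 and 2925 in high fat + high sugar livers, 2046, 2332 and 2517 in high-fat livers, 2372, 2572 and 2885 in high-sugar livers, and 1963, 2425 and 2538 in control livers. A further 13 carriers, with 21 probes, did not pass the noise filter, and no group mean of these probes exceeded 3.28. These were Slc25a4 and Slc25a31, adenine nucleotide translocases, Slc25a13, citrin, Slc25a2, a second ornithine carrier, Slc25a18, a glutamate carrier, Slc25a40, related to the glutathione carrier, the uncoupling protein Ucp3, and Slc25a21, Slc25a27, Slc25a41, Slc25a43, Slc25a46 and Slc25a54. A reading in the noise limits what the probe can show and not whether the gene is expressed.

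Of 22 enzymes on either side of the carriers that were tested, 8 rose with the drink and 7 fell on the normal diet (68.2%, where 28.9% of all genes changed), and 4 rose and 7 fell on the high-fat diet (50%, where 30.6% did). Shmt2, mitochondrial serine hydroxymethyltransferase, rose by 0.62 (adjusted p = 1.47e-05) and Pcx, pyruvate carboxylase, fell by 0.65 (adjusted p = 4.61e-05) with the drink on the normal diet. On the high-fat diet Pcx fell by 0.80 (adjusted p = 2.44e-06), Cpt1a, the gate of mitochondrial fat oxidation, fell by 0.71 (adjusted p = 1.84e-05), and Asl, an enzyme of the urea cycle, fell by 1.09 (adjusted p = 8.09e-05). With the high-fat diet and water 3 rose and 2 fell (22.7%, against 17.9% of all genes), among them Cpt1a (0.58, adjusted p = 0.000478), Crat, carnitine acetyltransferase (0.48, adjusted p = 0.015), and Pck1, the cytosolic phosphoenolpyruvate carboxykinase (-0.84, adjusted p = 3.47e-06). With the diet and the drink 2 fell (9.09%, against 7.85% of all genes), Pck1 (-1.42, adjusted p = 5.13e-10) and Shmt2 (-0.38, adjusted p = 0.00916), and none rose.

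Of 17 mitochondrial transport proteins outside the family, 2 rose and 1 fell with the drink on the normal diet (17.6%, where 28.9% of all genes changed), and 3 rose and 5 fell on the high-fat diet (47.1%, against 30.6%). Vdac2, an outer membrane channel, rose by 0.78 on the normal diet (adjusted p = 8.92e-06) and by 0.39 on the high-fat diet (adjusted p = 0.00851), and Sfxn5, a sideroflexin, rose by 0.59 and 0.56 (adjusted p = 1.55e-05 and 2.06e-05). With the high-fat diet and water 3 rose and 1 fell (23.5%, against 17.9% of all genes). Of 8 import proteins, 1 rose and 4 fell with the drink on the normal diet (62.5%, against 28.9% of all genes), and 1 rose and 2 fell on the high-fat diet (37.5%, against 30.6%). Timm8a1, a chaperone of the intermembrane space, rose by 0.78 and 0.77 (adjusted p = 7.83e-06 and 6.63e-06), and Tomm40, the channel of the outer membrane, fell by 0.48 and 0.45 (adjusted p = 0.000498 and 0.000693); none passed with the high-fat diet on either drink.

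Of 7 transcription factors and coactivators with known carrier targets, 2 rose and 2 fell with the drink on each diet (57.1%, where 28.9% of all genes changed on the normal and 30.6% on the high-fat diet). With the high-fat diet 2 fell on each drink (28.6%, against 17.9% of all genes on water and 7.85% on the sugar drink). Ppargc1a, a coactivator of mitochondrial genes, fell by 0.95 on the normal diet (adjusted p = 2.39e-05) and by 0.83 on the high-fat diet (adjusted p = 9.08e-05) with the drink, and Esrra, the nuclear receptor it works with, fell by 0.48 (adjusted p = 1.82e-05) and 0.31 (adjusted p = 0.00154). Srebf1, the regulator of fatty acid synthesis, rose by 0.93 with the drink on the high-fat diet (adjusted p = 4.93e-06) and fell by 1.00 with the high-fat diet and water (adjusted p = 6.45e-06).

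Of the macrophage markers 9 of 12 were tested (not Cd68, Itgam and Ccr2), and 5 rose and none fell with the high-fat diet and water, the comparison in which Slc25a37 fell (55.6%, against 17.9% of all genes). With both treatments 5 rose as well (55.6%, against 35.5%). Their summed intensity was 3547 to 6400 in high fat + high sugar, 3014 to 4927 in high-fat, 2447 to 4432 in high-sugar and 2596 to 3019 in control livers. With the drink 2 rose on the normal diet (22.2%, against 28.9%), and 2 rose and 1 fell on the high-fat diet (33.3%, against 30.6%). Endothelial markers (7 of 7 tested) had 2 up and 2 down with the drink on the normal diet (57.1%, against 28.9%) and with both treatments (57.1%, against 35.5%), and 2 down with the drink on the high-fat diet (28.6%, against 30.6%). Of 6 stellate cell markers tested 1 rose with the drink on each diet (16.7%), 1 with the high-fat diet on the drink (16.7%, against 7.85% of all genes) and 3 with both treatments (50%, against 35.5%). Of the hepatocyte markers 3 of 5 rose with the drink on the normal diet (60%, against 28.9%), 1 rose on the high-fat diet (20%, against 30.6%), 1 rose with the high-fat diet and water (20%, against 17.9%), 1 fell with the diet and the drink (20%, against 7.85%), and 2 rose and 1 fell with both treatments (60%, against 35.5%). Of 4 lymphocyte markers tested none passed. Of the cholangiocyte, pancreas, adipocyte and muscle lists 2, 2, 1 and 1 genes were tested. Of the pancreas genes 1 rose with the drink on the normal diet (50%, against 28.9%). On the high-fat diet 1 rose and 1 fell with the drink (100%, against 30.6%), as with both treatments (100%, against 35.5%). Of the cholangiocyte genes 1 fell with the drink on the high-fat diet (50%, against 30.6%). No other call was made in these lists. The part of other cells in the carrier results was not tested.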

How the data were processed

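Liver RNA was converted to biotin-labelled cRNA with Ambion kits, per the labels' protocols, and read on Illumina arrays. The deposited unit is the probe intensity on a linear scale, made by the authors with GenomeStudio 2011.1, per the submitters' processing notes. From the values themselves, these intensities are background-subtracted (37.7% below 0, the lowest -13.0) and quantile-normalised (sorted columns differ by at most 0.231). Another deposited table has 24 signal and 24 detection p columns whose names match no label, and these 48 columns were not used.

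An offset of 32 was added and log2 taken. The noise limit was 1.645 times the root mean square of an array's negative values (6.50 to 6.52). Probes above it on at least 6 arrays were kept (20216), and each gene was read by its probe with the highest mean log2, which gave 11115 genes. On each array 17976 to 18011 probes exceeded the limit. Quantile normalisation makes these counts nearly equal, so they do not describe the quality of an array. Symbols came from the array's annotation, brought up to date through gene identifiers for 34807 of 34885 single-symbol probes (18 probes had several symbols, 10378 none). A gene with a group mean under the limit is given by its means, or as at least N-fold: the brighter group's mean over the other's, each array of it taken at the limit.

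Limma 3.58.1 in R 4.3.3 fitted 1 mean per group to all 24 samples, with the trend option of eBayes (residual degrees of freedom 20, prior 6.96). All 6 contrasts were tested two-sided, with Benjamini-Hochberg adjustment in each and 0.05 as the threshold. A carrier is named if it passed in at least 1 contrast, and up to 3 members of each other list by adjusted p. The family, the lists and the tests were chosen with earlier results of these data known; the erythroid list and the fit without 2 samples were added after the carriers' values were seen. The fit was tested on simulated data. Promoters are from RefSeq, and letters were matched by a text search.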

Additional observations from a re-analysis of the deposited data

Results flagged for a closer look

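For the 24 carriers that passed in at least 1 comparison, each group of 6 samples was examined for a sample whose distance from its nearest neighbour as a share of the group's range exceeded Dixon's critical value. Of 96 pairs of carrier and group, 8 had such a sample, and chance gives about 1 in 20. In high fat + high sugar livers, replicate 5 read 402 for Slc25a3, with the next at 224, and 152 for Slc25a17, with the next at 96.3; replicate 3 read 1114 for Slc25a11, with the next at 947. In high-fat livers, replicate 5 read 139 for Slc25a12, with the next at 111, replicate 6 read 157 for Slc25a3, with the next at 107, and replicate 4 read 18.8 for Slc25a22, with the next at 8.33. High-sugar replicate 1 read 219 for Slc25a26, with the next at 193, and control replicate 2 read 232 for Slc25a30, with the next at 98.0. The other result marked is the difference between the effects of the drink on the 2 diets for Slc25a37, 0.51 on the log2 scale (adjusted p = 0.0358, limma).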

How the results depend on the processing

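The 55 carrier calls were followed under 13 alternative settings, and 42 held in all of them; 40 of these also held in each of the 24 fits that left out 1 sample. Offsets of 16 and 64, a fit of all probes, cyclic loess and array weights lost none; a floor of 16 lost 8, no filter on dim probes 4, the mean over a gene's probes 3, a fit of the compared groups alone 3 of 54, and the fit without an intensity trend 1. A stricter filter left out Slc25a14, Slc25a22, Slc25a35 and Slc25a51 and lost none of the 50 calls it could give. Leaving out the 2 samples with muscle transcripts, an alternative chosen after seeing the data, lost 5. The sign turned once, for Slc25a11 with both treatments, at 0.011 with the mean over its probes, which include 1 that moved the other way. The count with the high-fat diet and the drink was 1 with the mean over probes. The count of the interaction, 1, was 0 with no filter and without the muscle samples, 3 with the stricter filter, 2 with the mean over probes, 4 with array weights and 2 with no intensity trend; the cause was not tested. The carriers added were Slc25a34 (with the stricter filter, mean over probes, array weights and no trend, and with the replicate block), Slc25a47 (stricter filter and array weights) and Slc25a25 (array weights and the replicate block). Without 1 sample, Slc25a25 passed without control replicate 2, Slc25a34 without control replicate 4, high-sugar replicate 1, high-fat replicate 2 or high fat + high sugar replicate 3, Slc25a47 without control replicate 6 or high fat + high sugar replicate 5, and Slc25a12 without high fat + high sugar replicate 3. Leaving out 1 sample gave 11 to 14 carriers with the drink on the normal diet, 12 to 14 on the high-fat diet, 5 to 8 with the high-fat diet and water, 1 to 3 with the diet and the drink, 18 to 22 with both and 0 to 3 in the interaction. The shares of all genes called in the alternative fits are not given here, so their counts have no background beside them. Dim probes are limited by the signal over background.

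Of 36 pairs of equal replicate number across groups, 10 had correlated deviations over 0.1, and the values ran from -0.27 to 0.28. The median was 0.01, as for unequal numbers, so no pairing by number was seen at the median. The share over 0.1 for unequal numbers is not given here, and whether some numbers pair samples was not tested. With the replicate block the counts were 12, 13, 7, 2 and 20 in the 5 comparisons and 3 in the interaction.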

Other observations

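Where a gene has several probes, the brightest and another can both pass in opposite directions. Over all genes this held for 119 of 716 such pairs (16.6%) when the normal diet was combined with the drink, 129 of 777 (16.6%) when the high-fat diet was and 138 of 973 (14.2%) with both treatments. It held for 2 of 459 (0.436%) with the high-fat diet and water, and for 3 of 173 (1.73%) with the diet and the drink. Among the carriers, Slc25a11 was such a gene: 1 of 5 carrier pairs with the drink on the high-fat diet was opposite, and 1 of 3 with both treatments. The difference between these shares was not tested.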
